A study of Drosophila melanogaster with 16 samples.

Results

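Polyhomeotic (PH) bound the eye disc at 687 regions that also carried Polycomb (PC) and touched a domain of trimethylated lysine 27 of histone H3 (K27me3). They were chosen by their called positions in these 3 deposited eye lists, as the PH regions that overlap both a PC region and a K27me3 domain by at least 1 bp. They made up 20.4% of the 3370 eye PH regions on the main chromosome arms. The same rule left 1001 PH regions with PC outside K27me3, 103 without PC inside K27me3 and 1579 without either. The series compares Polycomb proteins and histone marks in eye and wing imaginal discs of Drosophila melanogaster larvae at stage L3, with 9 ChIP-seq groups used or named here and 7 RNA-seq groups of mutant and control eye discs that were not used here. The ChIP-seq groups were PC, PH, K27me3, acetylated lysine 27 (K27ac) and input from eye discs, and PC, PH, K27me3 and input from wing discs, and the labels give no mutation or treatment for them. Chromatin was fixed in 1.8% formaldehyde for 15 min, and 12 to 14 immunoprecipitations were pooled for PC or PH, 3 to 4 for K27me3 and 3 for K27ac. Each group is 1 sample that stands for replicates 1 and 2 together, with 1 deposited list, so there is no spread between replicates and no test between conditions.

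Polycomb group proteins keep developmental regulator genes silent in cells where those genes are not needed. PRC2 writes K27me3, usually over broad domains, and PRC1, which holds PC and PH, gathers at short regulatory elements. PC carries a chromodomain that binds K27me3, while PH is a PRC1 core subunit with a SAM domain that can polymerise. K27ac marks active enhancers and promoters and cannot sit on the same histone tail residue as K27me3. Imaginal discs are larval epithelia, the eye disc forming the adult eye and the wing disc the wing and part of the thorax.

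The deposited lists hold arm, start and end of each region, with no height or score, so a region is either called or not and binding strength is not known. Whole discs were used, so a region called in few cells and one called weakly in many cannot be told apart. Read depth is unknown, and the lists differ in length. After regions off the main arms or of width 0 were left out, eye PH had 3370 regions, eye PC 2027, eye K27me3 349 and eye K27ac 7290, and wing PH had 5062, wing PC 3716 and wing K27me3 583. The lists covered from 2.51% of the arms (eye PC) to 21.6% (eye K27ac). No file gives an RNA level for these chromatin samples, so the tissue labels were not checked against markers. Coordinates are counted from 1, so each start printed here is the deposited start plus 1, and ends are as deposited. No build is named for the region lists (not given in the sources used here). On arm 3R the largest region end was 27.9 Mb against a last gene end of 32.1 Mb in the Release 6 gene table, so that table was not joined to the regions, and genes and sequences at them were not analysed here.

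The PH regions were close in width to eye PH regions at large, and most had a PC centre nearby. Their median width was 1295 bp (95% interval of the median 1259 to 1329, n = 687), the middle 50% ran from 976 to 1760 bp, and the full range was 22 to 6551 bp. Only 8 were under 200 bp and 20 over 3000 bp. The median over all 3370 eye PH regions was 1249.5 bp (1213 to 1276). The PC region with the most overlap had its centre a median of 143.5 bp from the PH centre, and within 500 bp for 531 regions (77.3%). At PH regions with PC outside K27me3 the median was 130 bp, with 86.3% within 500 bp. Overlap with PC is part of the rule, so close centres are a description and not particular to these sites. A single PC region lay at 661 of the 687, while 24 had 2 and 2 had 3. PC covered 444 of the PH regions (64.6%) from end to end.

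The PC region was usually the wider partner. At 569 of the 687 sites (82.8%) the PC region was wider than the PH region, with a median width of 1765 bp and a median ratio of PC to PH width of 1.19 (95% interval 1.14 to 1.25). At PH regions with PC outside K27me3 the same ratio was 0.860 (95% interval 0.838 to 0.881, n = 1001), PC was the wider one at 23.5%, and PC covered 9.79% from end to end. PC regions were thus mostly wider than PH at sites inside K27me3, and mostly not at those outside. The 687 sites fell in 632 eye PC regions and the 1001 outside in 982. A PC region that spans more than 1 PH region therefore counts more than once, and more often so inside K27me3. These widths come from the lists that chose the sites and are given as a description with no test.

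**Figure D1:**
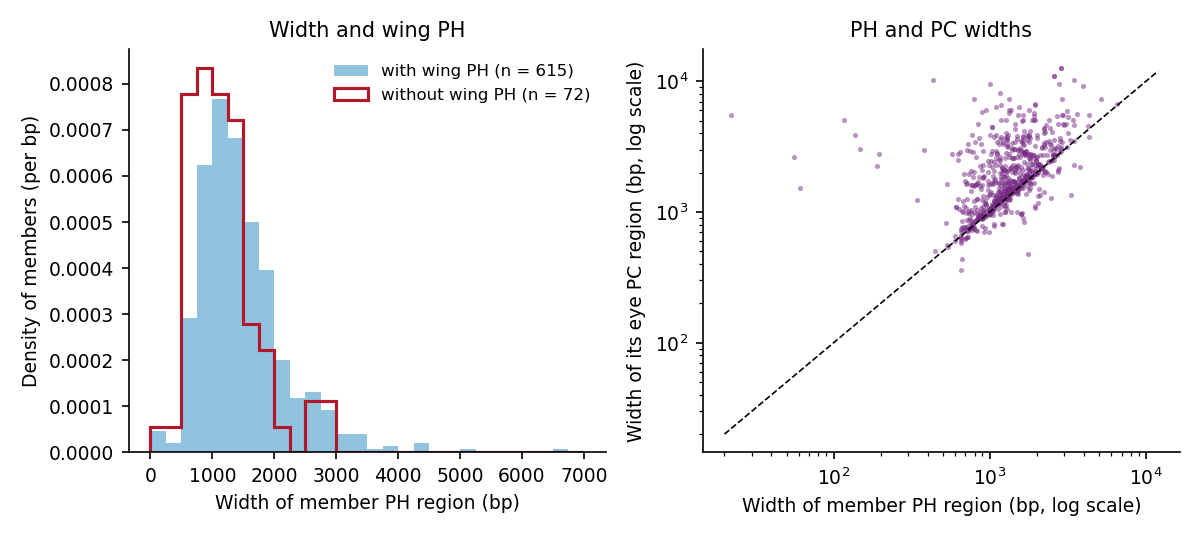
Left, histogram of the width of the 687 eye PH regions with PC inside K27me3 (bp), as density, for the 615 that overlap a wing PH region and the 72 that do not. Right, width of each PH region against that of its eye PC region (bp, both axes log), with a dashed line at equal width: 569 points lie above the line, and medians of the left panel are 1316 bp with and 1036.5 bp without wing PH.

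Reading the rule the other way, PH was called at most PC regions whether or not K27me3 was there. Of the 774 eye PC regions that touch K27me3, 646 (83.5%) had PH, and of the 1253 others 1013 (80.8%) had PH. Of the 790 eye PH regions in K27me3, 687 (87.0%) had PC. The rule asks for contact with a PC region and with a domain, not that both lie on one stretch, and at 4 sites the PC region with the most overlap did not itself touch K27me3.

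The 687 sites sat in 166 of the 349 eye K27me3 domains (47.6%, exact Clopper-Pearson 95% interval 42.2 to 52.9), and those domains were mostly the wider ones. They held 8.42 of the 9.23 Mb of K27me3 (91.2%). Their median width was 37.8 kb, against 1.45 kb for the 183 domains without such a site. The widest domain without one was 57.0 kb, and the narrowest with one was 0.501 kb. A wider domain has more room for a PH region to touch it, so this is a description. A site was wholly inside its domain in 647 cases (94.2%) and crossed an edge in 40. In 26 of these the centre of the PH region lay outside the domain it touched.

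Sites were unevenly shared among domains. Of the 166 domains, 44 held 1 site, 87 held 2 to 5, 21 held 6 to 9 and 14 held 10 or more. Those 14 domains carried 209 of the sites (30.4%). The number of sites was higher in wider domains (Spearman rho = 0.769 across 166 domains, a description, since width gives room for more sites). The density went the other way, with a rho of −0.41 between width and sites per 100 kb, a quantity that itself has width in its denominator. The pooled density was 8.16 sites per 100 kb of these domains, and PH regions at these sites covered 11.3% of their length.

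**Figure D2:**
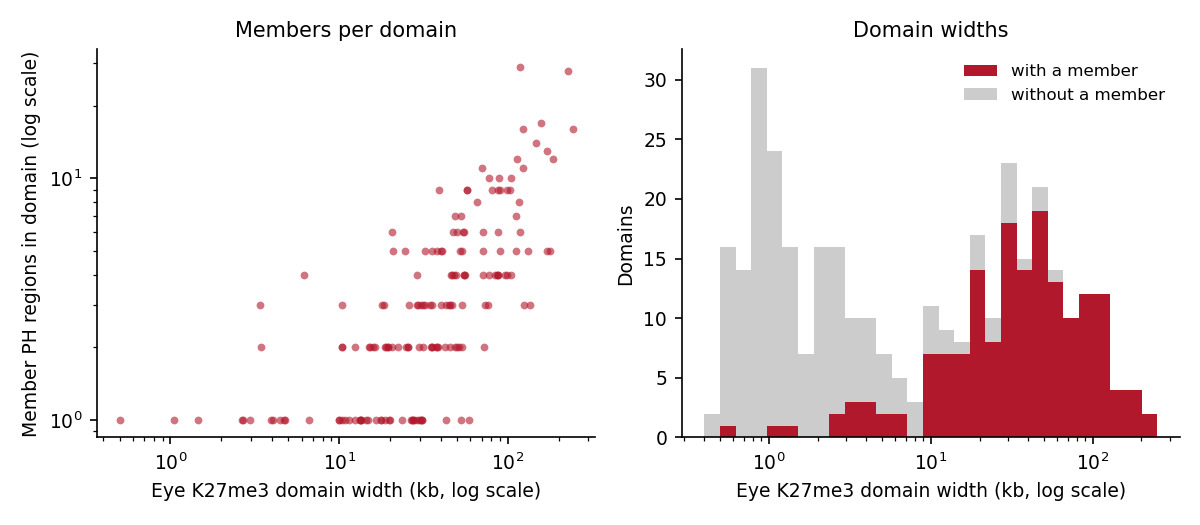
Left, number of eye PH regions with PC in each of the 166 eye K27me3 domains that hold at least 1 (log axis) against domain width in kb (log axis), 1 point a domain. Right, stacked histogram of the widths of all 349 eye K27me3 domains (kb, log axis), 166 with such a region and 183 without: every domain wider than 57.0 kb holds one, and the median width is 37.8 kb with and 1.45 kb without.

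Within a domain, neighbouring sites lay a few kilobases apart. Over 521 pairs of neighbours in the same domain, the median distance between centres was 5.36 kb, with the middle 50% from 2.25 to 12.5 kb and a range of 0.569 to 78.4 kb. A distance under 5 kb was found for 247 pairs (47.4%) and one over 20 kb for 53 (10.2%). Each called PH region counts as 1 site here, and some neighbours lie almost end to end. Merging PH regions with a gap under 1 kb left 548 sites, so site counts, densities and distances depend on how regions were split. The sites were spread over the whole domain: with the way from edge to middle cut into 5 equal steps, these held 19.4%, 16.3%, 22.9%, 23.0% and 18.5% of the sites. These shares count all 687 sites, including the 26 with a centre outside the domain they touch. By arm, 208 sites were on 3R, 148 on 2L, 133 on X, 106 on 2R, 87 on 3L and 5 on the small arm 4. The density per 100 kb of K27me3 domain was lowest on 3L, at 5.11, and lay between 7.02 and 8.44 on the other arms.

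The 3 domains with the most sites differed in how densely these were packed. The first, chr2R:8838251-8955951, was 118 kb wide and held 29 sites, or 24.6 per 100 kb, at a median distance of 2.21 kb. The sites were 628 to 3097 bp wide and covered 38.1% of the domain. The second, chr3R:12588001-12813951, was 226 kb wide and held 28 sites at a median distance of 6.99 kb, with widths of 704 to 2911 bp. They covered 14.8% of the domain. The third, chrX:4268701-4426951, was 158 kb wide and held 17 sites at a median distance of 7.14 kb, with widths of 728 to 2633 bp, which covered 15.8% of it. In the first domain the sites thus took up a much larger part of the sequence than in the others. Several of its sites lie almost end to end, so its count and median distance depend on how regions were split.

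The same 3 domains were also covered by wing K27me3, over 91.6%, 100% and 99.5% of their length. Wing PH was called at 26 of 29, 25 of 28 and 16 of 17 of the sites, and wing PC at 29, 27 and 14. Eye K27ac touched 2 sites in the first and none in the second, and in the third it covered 20.7% of the domain and touched 5 sites.

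**Figure D3:**
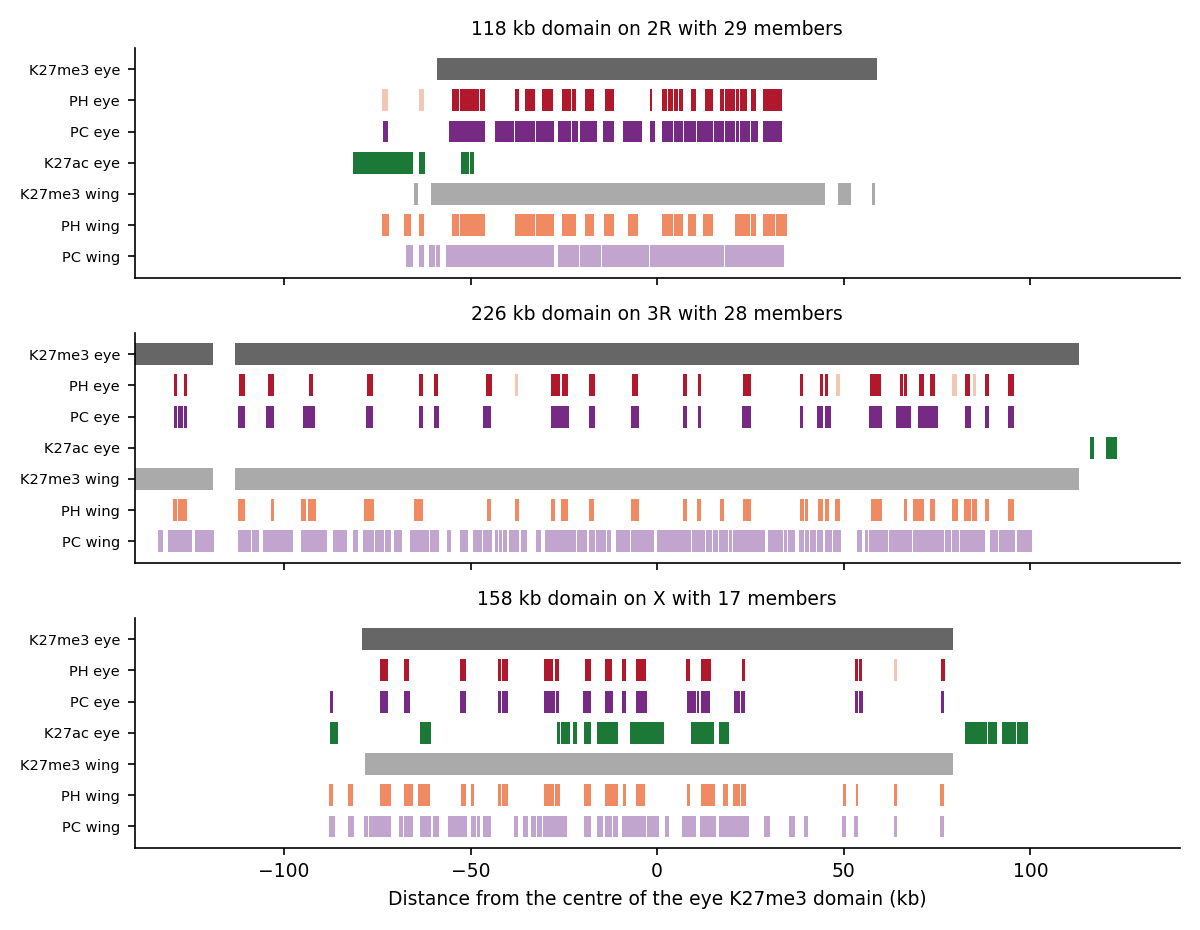
Called regions in and around the 3 eye K27me3 domains with the most eye PH regions with PC (29, 28 and 17), drawn to scale as distance in kb from the domain centre. Each row is a deposited list (eye K27me3, PH, PC and K27ac, wing K27me3, PH and PC), and eye PH regions in pale red lack PC or lie outside K27me3; K27ac is absent inside the 226 kb domain and covers 20.7% of the 158 kb domain.

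The wing disc lists and the eye K27ac list took no part in choosing the sites. With 1 sample a group there is no test between conditions, and shares are given with exact Clopper-Pearson 95% intervals that cover counting error only and treat regions as independent, although sites in a domain share it. Of the 687 sites, 615 overlapped a wing PH region (89.5%, 87.0 to 91.7), where 88.5% of all 3370 eye PH regions did. This share was thus near that of eye PH regions at large. Wing PC was called at 598 sites (87.0%, 84.3 to 89.5) against 62.0% of all eye PH regions. A wing K27me3 domain was found at 654 sites (95.2%, 93.3 to 96.7) against 24.2%. Eye K27ac touched 103 sites (15.0%, 12.4 to 17.9) against 62.5%.

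The closest comparison was with the 1001 PH regions with PC outside K27me3. Wing PH was called at 92.7% of these (90.9 to 94.2) and wing PC at 79.3% (76.7 to 81.8). A wing K27me3 domain was found at 4.00% (2.87 to 5.40) and eye K27ac at 86.8% (84.6 to 88.8). Both groups of PC-bound sites were therefore largely called again in the wing for PH. This was not particular to sites with PC. The 1579 PH regions without PC outside K27me3 had wing PH in 86.7% (84.9 to 88.3) and wing PC in 39.8% (37.4 to 42.3). Sites inside and outside eye K27me3 mostly kept that state in the wing list. The 103 PH regions without PC inside K27me3 overlapped wing PH in 69.9% (60.1 to 78.5), wing PC in 66.0% (56.0 to 75.1), wing K27me3 in 85.4% (77.1 to 91.6) and K27ac in 15.5% (9.15 to 24.0). No test of these differences was run.

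**Figure D4:**
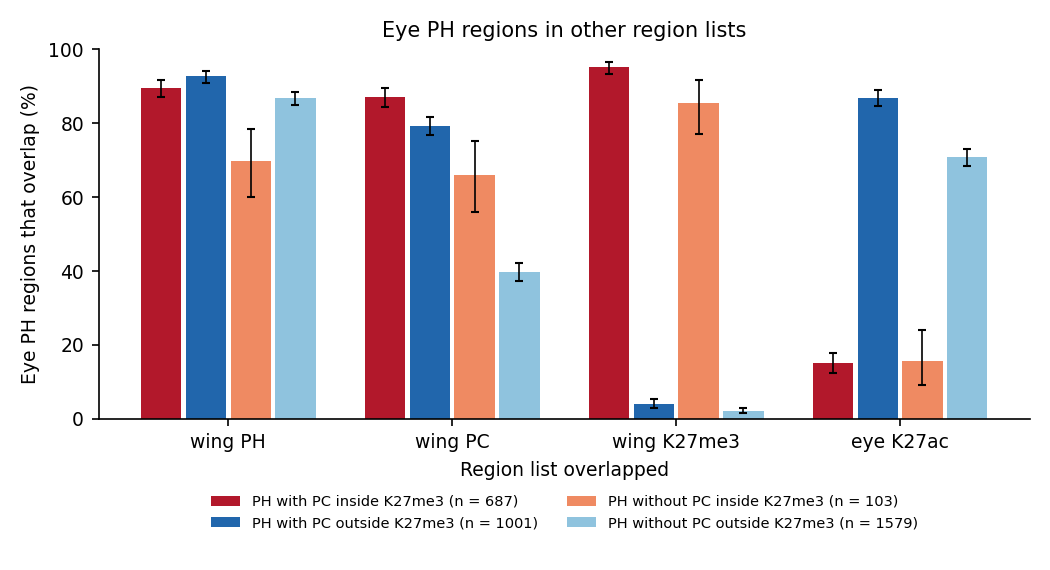
Percent of eye PH regions (bars from 0) that overlap a wing PH region, a wing PC region, a wing K27me3 domain or an eye K27ac region by at least 1 bp, for the 4 classes of eye PH regions, with exact Clopper-Pearson 95% intervals. The 687 regions with PC inside K27me3 stand at 89.5%, 87.0%, 95.2% and 15.0%, and the 1001 with PC outside at 92.7%, 79.3%, 4.00% and 86.8%.

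Region width went along with some of these shares. With all eye PH regions cut by width into 4 bins of equal size, from narrow to wide, wing PH was called at 80.6%, 89.4%, 91.0% and 94.8% of the sites inside K27me3 (n = 134, 180, 200 and 173). Eye K27ac stood at 10.4%, 7.78%, 15.0% and 26.0% in the same bins. For PH with PC outside K27me3, K27ac stood at 66.9%, 82.3%, 94.3% and 94.1%, so in each bin the share was higher outside K27me3. Wing K27me3 ran the other way, at 96.3%, 98.3%, 95% and 91.3% of the sites inside K27me3. The part of width in these shares was not tested.

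How much of the K27me3 domains each list covers sets a scale for these shares. The centre of a site lay in a wing PH region in 88.5% of cases, while wing PH covered 20.2% of the length of the eye K27me3 domains. For wing PC the values were 86.8% of centres and 43.6% of the length, and for eye K27ac 13.8% and 6.35%. For wing K27me3 they were 92.9% and 90.2%. Wing PH and wing PC were therefore found at these sites more than over the domains as a whole. Eye K27ac was also above its share of the domains, but it changed little with distance from the sites. It stood at 10.6% and 12.8% at 2 kb on either side, and at 13.8% and 15.0% at 20 kb. The centres include the 26 outside the domain they touch, so the K27ac value is not particular to the sites. Wing K27me3 was found at about the share at which it covers the domains.

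Wing PC covered more of the ground around the sites than eye PC, as it did over the domains as a whole. At 5 kb on either side, wing PC was called at 56.9% and 54.5% of the sites, and eye PC at 21.1% and 21.3%. Over the whole length of the eye K27me3 domains wing PC covered 43.6% and eye PC 16.2%, so the difference at 5 kb is not particular to the surroundings of the sites. Wing PH stood at 23.7% and 24.2% at that distance and covered 20.2% of the domains. The wing PC region with the most overlap was a median of 4207.5 bp wide (3871 to 4724, n = 598), or 3.15 times the eye PH width (2.89 to 3.40). At sites outside K27me3 the wing PC region was a median of 1907.5 bp wide and 1.19 times the eye PH width (1.15 to 1.24, n = 794). Wing PH was 1.21 times as wide as eye PH inside K27me3 (1.18 to 1.26, n = 615) and 1.25 times outside (1.21 to 1.30, n = 928). Long wing PC regions held more than 1 site at times, so the 598 sites fell in 465 wing PC regions, and the 615 with wing PH in 554 wing PH regions.

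**Figure D5:**
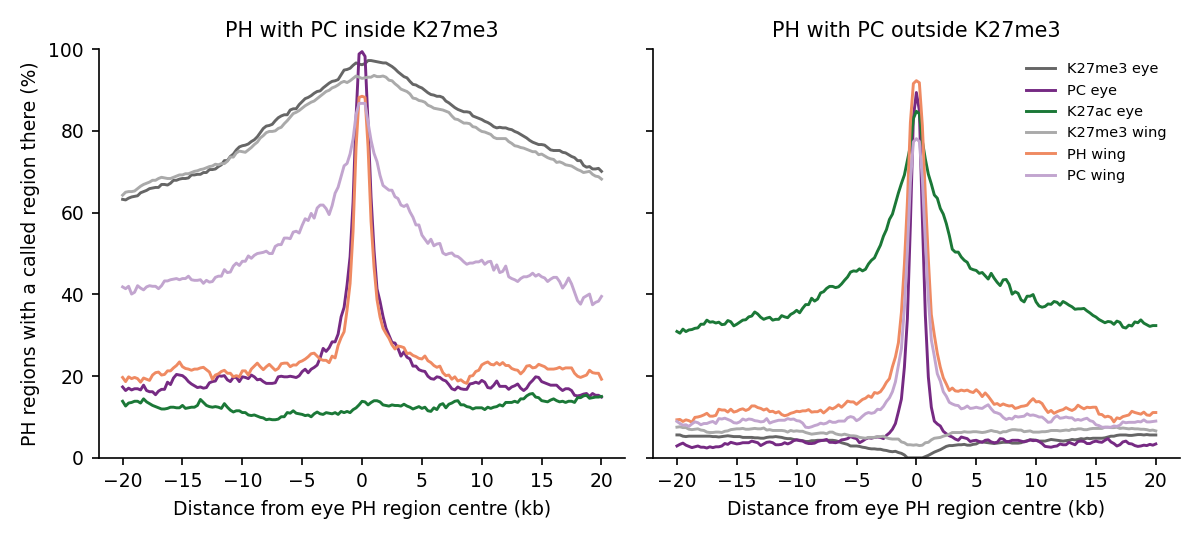
Percent of eye PH regions that have a called region of each list at a given distance (kb) from the PH centre, in steps of 250 bp to 20 kb on either side, for the 687 with PC inside K27me3 (left) and the 1001 with PC outside (right). Inside K27me3, wing PC stays at 56.9% and 54.5% at 5 kb while eye PC is at 21.1% and 21.3% (over all eye K27me3 the lists cover 43.6% and 16.2%), and K27ac is at 13.8% at the centre; outside, K27ac peaks at the PH centre at 84.8%.

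All 3 wing lists were called together at 509 of the 687 sites (74.1%, 70.6 to 77.3), and 1 site had none of them. The joint share over all eye PH regions was not computed, so these counts only describe the sites. That site lay in chr2L:19768951-19770401, a domain of 1.45 kb. Of the 72 sites without wing PH (10.5%), 62 had wing PC (86.1%, 75.9 to 93.1), 69 had wing K27me3 (95.8%, 88.3 to 99.1) and 60 had both. The shares for wing PC and wing K27me3 were near those over all 687 sites, 87.0% and 95.2%. The sites without wing PH were narrower, with a median of 1036.5 bp (910 to 1177) against 1316 bp (1276 to 1371) for the 615 with wing PH. The nearest wing PH region was a median of 1.39 kb away, under 1 kb for 26 of them and 10 kb or more for 5. They were spread over 46 domains, with at most 4 in a domain, and in 44 of these other sites of the same domain did have wing PH.

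The 5 widest sites without wing PH all had wing PC and wing K27me3 and no K27ac. The site chr2R:18160446-18163269 was 2824 bp wide, with wing PH 765 bp away. At chr2L:3551903-3554687 the PH region was 2785 bp wide inside an eye PC region of 9549 bp, and wing PH was 2.81 kb away. At chr3R:9682815-9685547 it was 2733 bp wide and touched 3 eye PC regions. The other two were chr3L:12429661-12432181 (2521 bp, wing PH 1.45 kb away) and chr2L:7301715-7303830 (2116 bp, wing PH 154 bp away). The third of these had wing PH 1.36 kb away, so for all 5 a wing PH region lay between 154 bp and 2.81 kb away.

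The 89 sites without wing PC had wing PH in 79 cases (88.8%, 80.3 to 94.5), close to the 89.6% (86.9 to 92.0) among sites with wing PC. The share with wing PH among the sites was therefore about the same with and without wing PC. The 33 sites without wing K27me3 lay in 17 domains, and 30 of them (90.9%, 75.7 to 98.1) had wing PH and 29 (87.9%, 71.8 to 96.6) wing PC. Of these 33 sites, 9 came from a single domain, chr3R:23005901-23063451, which is 57.6 kb wide and overlaps no wing K27me3. All 9 had wing PH and wing PC, and 2 had eye K27ac. This domain was chosen after its values were seen.

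Among the 166 domains with a site, 163 overlapped wing K27me3 (98.2%, 94.8 to 99.6), and the median domain was covered over its whole length. Of the 183 domains without a site, 109 did (59.6%, 52.1 to 66.7), and domains without a site were mostly the narrower ones. The 3 eye domains with sites that met no wing K27me3 held 12 sites. Of 991 wing PH regions that touch a domain with a site, 364 (36.7%) overlapped no eye PH region. Of the 4071 wing PH regions elsewhere, 1980 (48.6%) overlapped none. The domains with a site were picked because they hold eye PH, so the lower share there is a description.

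The 103 sites with eye K27ac lay in 52 domains, and a few domains carried it over most of their length. In 16 domains every site had K27ac, but 10 of these held a single site. In 11 of the domains with a site K27ac covered at least 50% of the length, and these held 31 of the 103 K27ac sites. In chr3R:18954001-18974451, of 20.5 kb, K27ac covered nearly the whole length and all 6 sites had it. In chrX:5889201-5929451, of 40.3 kb, K27ac covered 96.5%, all 5 sites had it, and wing K27me3 covered 20.6%. At the other end, 101 domains with 345 sites had no K27ac at all. These lists come from whole discs, and whether both marks lie in the same cells was not tested.

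Sites with K27ac were wider and nearer to an edge. Their median width was 1630 bp (1399 to 1783) against 1268.5 bp (1209 to 1301) for the 584 without, and their median distance from the domain edge was 9.31 kb against 16.3 kb. The width of a domain limits this distance, and domain width was not taken into account. Of the 69 sites with a centre within 2 kb of an edge or beyond it, 24 had K27ac (34.8%, 23.7 to 47.2), and of the 618 farther in, 79 (12.8%, 10.3 to 15.7). Sites without wing K27me3 had K27ac in 14 of 33 cases (42.4%, 25.5 to 60.8), and those with it in 89 of 654 (13.6%, 11.1 to 16.5). Wing PH was called at 92.2% of sites with K27ac (85.3 to 96.6) and 89.0% of those without (86.2 to 91.5), intervals that overlap.

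The widest K27ac sites mostly straddled a domain edge. At chrX:2028226-2033359 the PH region was 5134 bp wide with 509 bp in K27me3 and 72.8% under K27ac. At chr3R:26884977-26889289 it was 4313 bp wide, 41.5% in K27me3 and 56.9% under K27ac. At chrX:18430710-18434491 it was 3782 bp wide, 19.6% in K27me3 and 99.6% under K27ac. At chr2R:3032014-3035487 it was 3474 bp wide with 37 bp in K27me3. The exception was chr3R:18956286-18959781, of 3496 bp, which was wholly in K27me3 and wholly under K27ac.

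Of the 5 widest sites of all, 3 carried no K27ac. The widest was chr3R:19117366-19123916 at 6551 bp, with PC over 99.7% of it, wing PH of 7379 bp and no wing PC. The site chr2L:603606-607925 was 4320 bp wide, with a wing PH region of 3503 bp. The site chr4:525310-529602 was 4293 bp wide in a domain of 19.4 kb, and it had wing PH and PC but no wing K27me3. The other two of the 5 widest are the first pair of K27ac sites above.

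The rule's threshold of 1 bp separates a few close cases. Just inside, the smallest contacts with K27me3 were 13 bp at chrX:4447801-4448563, 22 bp at chr3R:18971948-18971969, a PH region of only that width, and 37 bp at the chr2R site above. The smallest contacts with PC were 22 bp at that same chr3R region, 23 bp at chr3R:9758944-9759287 and 52 bp at chr2L:15386898-15387087. Just outside, the nearest PH regions with PC were 6 bp from a domain at chr3L:10890828-10892994, and 100 bp at chr2R:8803052-8805382 and chr2L:15113052-15114403. All 3 had eye K27ac and wing PH, and 1 of them had wing K27me3.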

How the data were processed

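Region lists of 7 ChIP-seq groups were used, each 1 list for replicates 1 and 2 together. Per the submitters' processing notes the ChIP-seq tools were CASAVA 1.8.2 and SICER; the maker of each list, its thresholds and its build are unknown here. The deposited values are start and end in bp, with no score, so no normalization applies. The 4 RNA-seq tables were not used, since they hold no positions. Empty regions and those off arms X, 2L, 2R, 3L, 3R and 4 were dropped, at most 10 per list. Overlap needed 1 bp. Shares have exact Clopper-Pearson 95% intervals and medians order-statistic 95% intervals. Regions named were the 5 widest, the 5 widest without wing PH and with K27ac, the closest to the threshold and the 3 domains with the most sites. Members and lists were chosen with earlier results of these data known. Overlap counts were checked against bedtools and on simulated data. Read depth is unknown. Python 3.11.15, numpy 2.4.6, pandas 2.3.3, scipy 1.17.1 and matplotlib 3.10.9 were used.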

Additional observations from a re-analysis of the deposited data

How the results depend on the processing

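A total of 5 alternatives were set at the start and 3 were chosen after seeing the data, giving 51 values for 8 results. Of these, 41 stayed within the interval of the reported value (for the count of sites, within 1.5 times). Keeping only PH regions at or above the median width of the eye list left 373 sites in 40.1% of domains, with a median width of 1704 bp and a median PC distance of 206 bp. Wing PH then stood at 92.8%, wing PC at 89.8%, wing K27me3 at 93.3% and K27ac at 20.1%. Asking for 50% of the PH region to be covered, by K27ac as well as by PC and K27me3, moved K27ac to 12.0%. Merging PH regions with a gap under 1 kb moved the median width to 1594.5 bp (548 sites). Without the 2 domains with the most sites, wing PH stood at 89.5% and K27ac at 16.0%; with each domain weighted equally, at 91.7% and 17.2%. No paired analysis was possible because each group is 1 sample. The lists hold no score, so a stricter call could not be tried except by width.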

Other observations

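The K27me3 lists differed somewhat between the sides of the sites, with before and after taken along the arm coordinate. At 20 kb before the PH centre the eye list covered 63.3% of sites and at 20 kb after it 70.1% (686 sites within the arm on each side), and the wing list 64.3% and 68.2%. Eye PC stood at 17.3% and 14.9% at the same distances. All 349 eye domain starts are multiples of 50 bp, and 151 are multiples of 500 bp. The difference between the sides was not tested, and sites in a domain share it.

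In 120 of the 166 domains every site had wing PH, 42 of them by their single site and 78 with more than 1 site, and in 2 domains, with 1 site each, none had. Of 68 domains with at least 4 sites, 33 had wing PH at all of them, and the lowest share was 40%.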
